A study of Drosophila melanogaster with 3 samples.

Results

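The regions described here are places in or beside short gaps between neighbouring genes where CUT&Tag peaks of HA-tagged BunA recurred in every library. Peaks of the 3 libraries on 2L, 2R, 3L, 3R, 4 and X were joined when they shared 1 bp or more, and the 5729 joined regions with a peak of each library are called consensus regions. As centre of a region the mean of 3 summits was taken, those of its highest peak in each library. A region was taken when its centre lay within 1000 bp of the boundaries of protein-coding genes on both sides of a gap, that is, of at least 2 genes whose spans do not overlap each other. This rule took 933 regions, 16.3% of the consensus regions, and they are called short-gap regions below. Another 1447 consensus regions lay within 1000 bp of a protein-coding boundary without meeting the rule, and 3349 lay farther from every such boundary.

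All 3 libraries came from wing discs, the larval epithelia that form the adult wing, of larvae in the third instar with the genotype nub>GFP;UAS-BunA-HA. The transgene, a tagged isoform of bunched, was thus driven by nubbin, which is active in the wing pouch, so the binding profiled is that of a protein supplied by a driver, and GFP was expressed beside it in all the larvae. Flies were grown at 25 °C, discs were kept at 37 °C for 15 min to dissociate them, and a Vazyme kit was used for library preparation. The 3 libraries form 1 group. They are numbered in accession order, and whether they stem from separate crosses is not stated, so their SD may be technical. A library without tagged BunA was not analysed here, and "bound" is used only for the presence of a peak.

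bunched encodes the TSC22 family protein of Drosophila, and the long isoform BunA promotes tissue growth. In CUT&Tag, a transposase held at an antibody inserts adapters into the DNA around the protein, and accessible DNA such as promoters is cut more readily than closed chromatin. The Drosophila genome is compact, and many neighbouring genes are separated by little sequence. Such a gap can hold the promoters of both genes, the promoter of one and the end of the other, or both gene ends. The gene table used here gives gene starts and ends along the chromosome without strand, so these arrangements cannot be told apart. Consequently a gap edge may be the start or the end of a gene.

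The libraries held 8192, 8048 and 8209 peaks on these chromosomes. Peaks whose own summit met the position rule numbered 1267, 1398 and 1387, or 16.6% ± 0.991 of a library's peaks (SD, n = 3). The lists hold no read counts, so sequencing depth is unknown. Of 1815 merged regions at positions that met the rule, 933 (51.4%) had a peak of all 3 libraries, 339 of 2 libraries and 543 of 1 library. The share with all 3 libraries was 60.1% for other regions near boundaries and 51.2% for regions far from them. Over all merged regions it was 5729 of 10760, so the share at short-gap positions was near that of all regions.

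Most of the short-gap regions lay in the gap itself, close to one of its edges. The centre of 541 regions (58.0%) lay between the genes, and that of 353 (37.8%) lay inside a gene of the pair. Another 35 centres (3.75%) lay between the genes but within another protein-coding gene that overlaps the gap, and 4 lay beside the pair. Thus the name fits 58.0% of the regions strictly, and the others are within 1000 bp of both gene edges. The median gap was 384 bp, with quartiles at 201 and 602 bp, and 601 of the gaps counted per region (64.4%) were at most 500 bp. For comparison, all 7832 gaps of at most 2000 bp between protein-coding genes had a median of 303 bp. Of these, 2724 were at most 200 bp and 2626 were 201 to 500 bp long. From the centre of a short-gap region, the nearer gene of the pair was a median of 94.3 bp away and the farther one 508 bp. Both boundaries lay within 250 bp for 192 regions (20.6%) and within 500 bp for 454 (48.7%). Of the 541 regions between the genes, 199 (36.8%) had their centre in the middle 50% of the gap. Summit positions of a short-gap region spanned a median of 26 bp across the libraries.

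Gap length ran from 9 to 1752 bp. The shortest gap, between CG1360 and scra, which encodes the contractile ring protein anillin, had a region at 2R:7590103-7590213. Its fold enrichment over the caller's background, which is the authors' value for each peak throughout, was 6.41, 5.34 and 7.84 in the 3 libraries, 6.53 ± 1.25. The longest gap, between CG31816 and mtgo, had a region at 2L:16544008-16544113 with 5.04, 5.71 and 5.71, 5.49 ± 0.388. Both regions were below the median short-gap region, at 8.55-fold. Closest to the limit of the rule, the region at Mvl and Cortactin, inside Mvl, had its farther gene at 999.7 bp. Its fold enrichment was 14.3 ± 3.59. At 999.0 bp came the region at JIL-1 and Iyd with 11.7 ± 1.17 and that at CG11134 and CG11151 with 5.72 ± 0.755. Just beyond the limit, a region at pum and D1 had the farther gene at 1003.7 bp and 18.1 ± 0.980. One at TfIIFalpha and gzl had it at 1004.7 bp with 12.1 ± 1.38, and one at CG14435 and Tmf at 1006.7 bp with 7.10 ± 1.69. The median fold was 8.49 for the 241 regions whose farther gene lay at 751 to 1000 bp and 9.14 for the 196 regions with it at 1001 to 1250 bp.

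The question of whether peaks lie in short gaps more densely than elsewhere was addressed by counting summits per megabase of gap. Summits were densest in the shortest gaps, and their density fell with gap length. In gaps of at most 200 bp it was 557, 634 and 612 summits per Mb, 601 ± 40.1. It was 336 ± 31.0 in gaps of 201 to 500 bp, 245 ± 5.30 in gaps of 501 to 1000 bp and 142 ± 6.86 in gaps of 1001 to 2000 bp. Longer gaps held 120 ± 1.40 at 2001 to 5000 bp, 68.0 ± 1.42 at 5001 to 20000 bp and 47.4 ± 2.33 beyond, and the insides of protein-coding genes held 53.2 ± 0.611. Gaps of at most 2000 bp together held 253 ± 12.1 summits per Mb, above the insides of genes in 3 of 3 libraries. The library values of neighbouring length bins did not overlap. Without gaps beside histone repeat genes and Hsp70 copies, the shortest gaps held 541 ± 48.8. This and the following comparisons of edges, width, enrichment, recurrence and flanking genes numbered 23, each with an exact two-sided sign-flip permutation test over the 3 libraries. Each difference had one sign in all 3 libraries, and each exact permutation test gave p = 0.25, also after Benjamini-Hochberg adjustment. This is the smallest p that 3 libraries allow, so no comparison could pass 0.05.

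**Figure D1:**
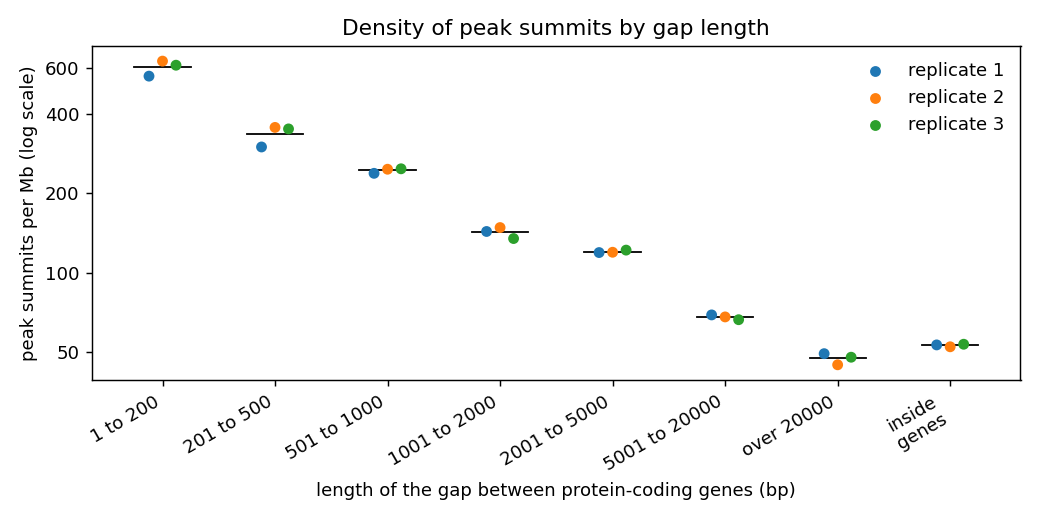
Peak summits per Mb (log axis) in gaps between protein-coding genes, by gap length in bp, and inside protein-coding genes. Points are the 3 libraries and bars their mean, which falls from 601 per Mb in gaps of at most 200 bp to 47.4 per Mb in gaps over 20000 bp.

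Density and the share of gaps used ran in opposite directions. A consensus region centred inside the gap was found in 4.04% of gaps of at most 200 bp, 7.04% at 201 to 500 bp, 12.4% at 501 to 1000 bp, 13.5% at 1001 to 2000 bp and 46.2% above 20000 bp. There were 7832 gaps of at most 2000 bp, 3.57 Mb in all, and most had no region. A consensus region within 1000 bp of both edges was found for 848 of them, 10.8%. In single libraries the share of such gaps with a summit was 14.1%, 15.5% and 15.5%, 15.04% ± 0.804. By chromosome the share of short gaps with a consensus region ran from 9.28% on 3L to 12.9% on X, and chromosome 4 had 5 of 36.

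Around the edges of short gaps, summits concentrated on the gap side of the edge, within the first 100 bp. There the density was 463, 528 and 509 summits per Mb, 500 ± 33.4, and it fell to 140 per Mb at 101 to 250 bp, where each library had 151 summits. On the gene side it was 94.7 ± 5.51 in the first 100 bp, 44.4 ± 5.60 at 101 to 250 bp and 86.2 ± 5.60 at 251 to 500 bp. The profile inside the genes was therefore lowest between 101 and 250 bp from the edge and higher beyond it. In 50 bp steps, with histone and Hsp70 copies left out, it was 34.3 ± 5.88 at 151 to 200 bp inside the gene and 129 ± 14.2 at 251 to 300 bp.

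Edges of gaps over 2000 bp gave a broader profile in the gap. Long gaps had 384 ± 37.2 summits per Mb in the first 100 bp and 291 ± 7.53 at 101 to 250 bp. Short gaps exceeded long ones by 116 ± 4.18 per Mb in the first 100 bp and fell below them by 151 ± 7.53 per Mb at 101 to 250 bp, each in 3 of 3 libraries. At 251 to 500 bp inside the gene short gaps exceeded long gaps by 16.5 ± 7.05 per Mb, again in 3 of 3 libraries. Each position was counted from its nearer edge, and in short gaps few bases lie far from both edges.

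**Figure D2:**
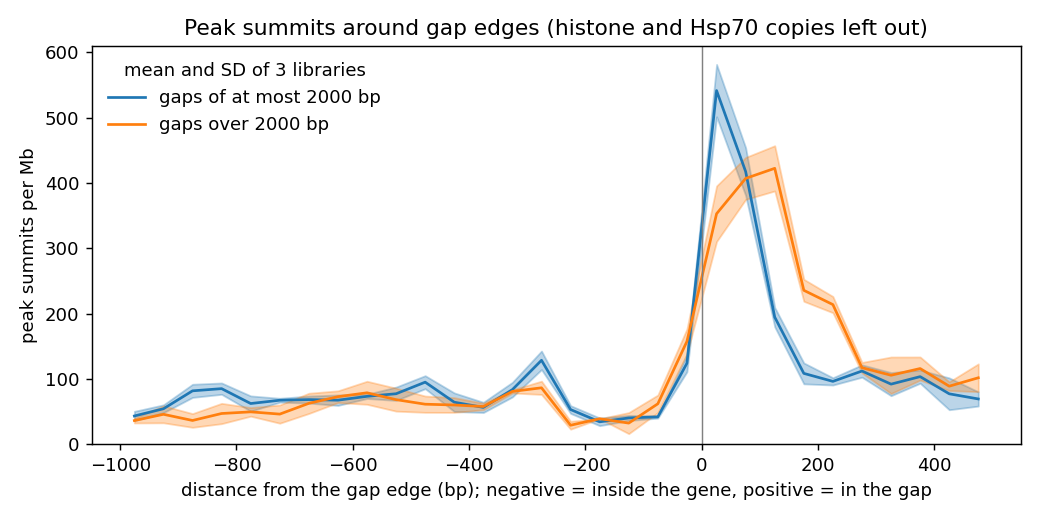
Peak summits per Mb in 50 bp steps around the edges of gaps of at most 2000 bp and of longer gaps, with negative distances inside the gene, positive distances in the gap, and gaps beside histone and Hsp70 copies left out. Lines are means and bands SDs of 3 libraries; in the first 50 bp of short gaps the density was 542 ± 40.1, and inside the genes both lines are low near 150 to 200 bp.

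Short-gap regions had narrower peaks than the other regions. Median peak width was 148, 159 and 157 bp in the 3 libraries, 155 ± 5.86, against 183, 193 and 195 bp for the other regions near gene boundaries and 203, 209 and 208 bp for regions far from them. The difference was -35.7 ± 2.08 bp and -52.0 ± 2.65 bp, respectively, and the values of the classes did not overlap. Their enrichment ranked a little lower than that of the other boundary regions and higher than that of regions away from genes. The median within-library percentile of fold enrichment among all peaks was 64.7, 67.3 and 67.8, 66.6 ± 1.64, against 69.6 ± 0.112 and 59.5 ± 1.34. The difference from the other boundary regions was -2.99 ± 1.62 percentile points, negative in 3 of 3 libraries, and it was -1.34 ± 1.29 without the histone and Hsp70 copies. That from the regions far from boundaries was 7.08 ± 2.95, positive in 3 of 3. Among short-gap regions 14.8% were above the 90th percentile of their library, against 18.7% of the other boundary regions, lower in 3 of 3 libraries.

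**Figure D3:**
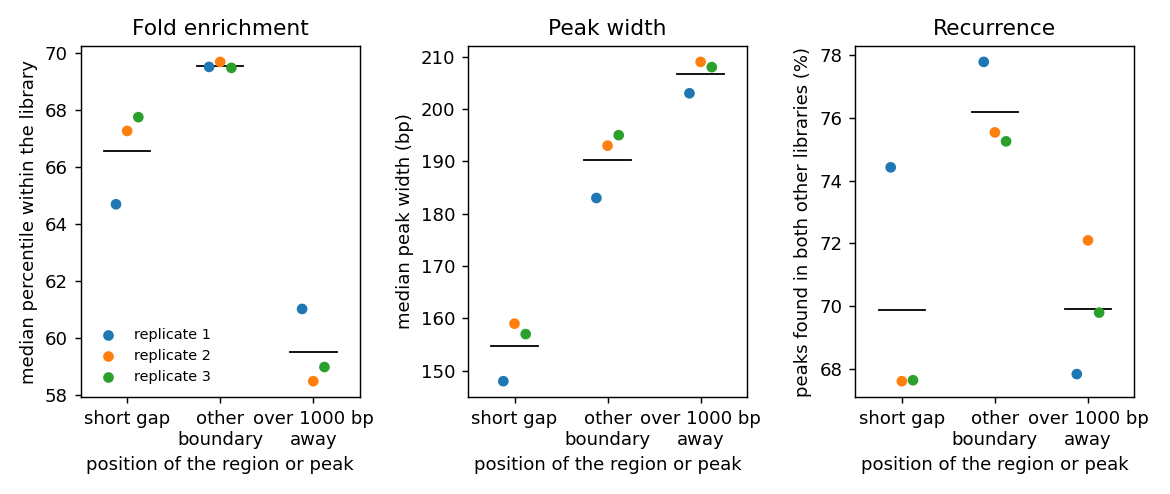
Median within-library percentile of fold enrichment, median peak width in bp and share of peaks recurring in both other libraries, for short-gap, other boundary and far positions. Points are the 3 libraries; the widths of 148 to 159 bp at short-gap regions lie below all the values of the other classes.

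Peaks at such positions recurred less between libraries than the other peaks near boundaries, with no common direction against peaks far from boundaries. All peaks of a library were classed by their own summit here, since the consensus rule itself asks for recurrence. Peaks of both other libraries overlapped 74.4%, 67.6% and 67.6% of the peaks in short-gap positions, 69.9% ± 3.94, against 77.8%, 75.5% and 75.3% of the other peaks near boundaries, 76.2% ± 1.39. The difference was -6.31 ± 2.56 percentage points, with the same sign in 3 of 3 libraries. Peaks far from boundaries recurred at 67.8%, 72.1% and 69.8%, 69.9% ± 2.14, below the short-gap positions in library 1 and above them in the other libraries. Among peaks above the median fold of their library the shares were 87.2% ± 4.08 and 93.1% ± 1.71, and among the others 47.6% ± 3.86 and 51.7% ± 1.79. Peaks in short-gap positions were narrower over all peaks too, at a median of 130, 130 and 129 bp against 161, 163 and 167 bp, and what narrower peaks contribute to the lower overlap was not tested.

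Short gaps with peaks had longer genes at their sides than short gaps without. A gap with a summit within 1000 bp of both edges had a longer gene of median 6585, 6383 and 6360 bp, 6443 ± 124, whereas gaps without one had 3583 ± 12.5 bp. The shorter gene of the pair was 1860 ± 25.0 and 1475 ± 4.65 bp long, respectively, but for gaps of at most 200 bp the order was reversed, at 1413 ± 48.2 against 1462 ± 2.47 bp and lower with a summit in 3 of 3 libraries. Histone and Hsp70 copies were kept in these comparisons. Of gaps of at most 200 bp, 235 had a consensus region within 1000 bp of both edges, and 183 without the copies. What the copies contribute to the reversed order was not tested. The longer gene was longer beside gaps with a summit in each length bin, at 4132 against 3467 bp for gaps of at most 200 bp and 10949 against 4251 bp for gaps of 1001 to 2000 bp. The gene of the pair with more annotated transcripts had a mean of 4.05 ± 0.0119 transcripts against 2.998 ± 0.00807. Pairs in which both genes have only a CG number made up 9.34% ± 0.161 of gaps with a summit and 21.6% ± 0.127 of gaps without, a difference of -12.2 ± 0.253 percentage points. Over all short gaps each of these differences had the same sign in 3 of 3 libraries. Gap length itself differed as well, at 355 ± 6.53 against 293 bp. A long gene offers more positions inside it to the rule, and the part of this in the difference was not tested.

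Regions tended to lie at the longer gene of the pair. Of the 541 regions between the genes, 347 (64.1%) were nearer to the longer gene of the pair, and 265 of the 353 regions inside a gene (75.1%) lay nearer to the longer one. For regions inside a gene, a longer gene offers more positions to the rule, and what this contributes was not tested.

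Regions inside a gene of the pair had higher enrichment than those between the genes. Their median percentile was 70.7, 71.5 and 73.1 against 64.7, 65.8 and 66.7 between the genes, a difference of -6.02 ± 0.405 points for between minus inside. Peak width was 166 ± 7.55 and 145 ± 4.62 bp, respectively. The 35 regions between the genes but within another gene had a median percentile of 30.4 ± 5.24, but 17 of them lay in the histone repeats, and the other 18 had 61.4 ± 4.34. Without histone and Hsp70 copies the regions inside a gene had 72.6 ± 1.75 and those between the genes 65.7 ± 1.005. Of the 115 short-gap regions above the 90th percentile, 69 (60.0%) lay inside a gene of the pair, as did 35 of the 50 highest and 11 of the 12 highest by mean percentile.

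The highest of all was inside homer, next to Liprin-alpha, at 2L:6722904-6723107, with a gap of 543 bp. homer and Liprin-alpha both encode scaffold proteins of synapses. Fold enrichment was 24.5, 29.3 and 29.5, 27.8 ± 2.84, and the summit lay 348 bp from the homer boundary. The region beside CG34015 and eIF4H1, a translation initiation factor, at X:16448895-16449077, had 24.2, 25.7 and 22.5, 24.1 ± 1.60. The library values of this region and the one at homer overlapped. The region at CG6333 and Oatp74D, which encodes an importer of ecdysone, at 3L:17486974-17487654, had 21.6, 23.6 and 23.4, 22.8 ± 1.10.

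The other high regions lay at genes of varied function. At X:12654267-12654625, beside CkIalpha, a kinase of the Wingless and Hedgehog pathways, and Tomosyn, a regulator of vesicle fusion, the values were 23.0, 21.9 and 19.0. The region at Gug, which encodes the Atrophin corepressor, and CG6983 at 3L:8450157-8450307 had 20.1, 19.1 and 22.0, and that at Alh, a homologue of the human gene AF10, and CG10098 at 3R:7123784-7123995 had 20.2, 22.4 and 17.9. The region between pigeon and drl, a receptor of the Ryk family that binds Wnt5, at 2L:19190131-19190370, had 17.5, 22.0 and 21.3, and it was the only one of the 12 highest with its centre between the genes. The region at Sgs3, a salivary gland glue gene, and CG7512 at 3L:11512523-11513138 had 20.3, 24.4 and 22.6. The remaining 4 of the 12 highest were at woc and CG14262 (3R:27263496-27263700), CG17068 and Rab10 (X:20251750-20251954), baf and Cka (2L:8030944-8031107), and Nop17l and sax (2R:7806897-7807053), with means between 19.9 and 21.1. The library values of neighbours in the order of these 12 overlapped. At the lower end, a region at wech and Coop had 3.38, 3.97 and 3.89. One at Hsp83 and CG32276 had 3.64, 3.30 and 3.74, and one at Hsp70Bc and Octbeta3R had 3.08, 3.61 and 3.61.

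**Figure D4:**
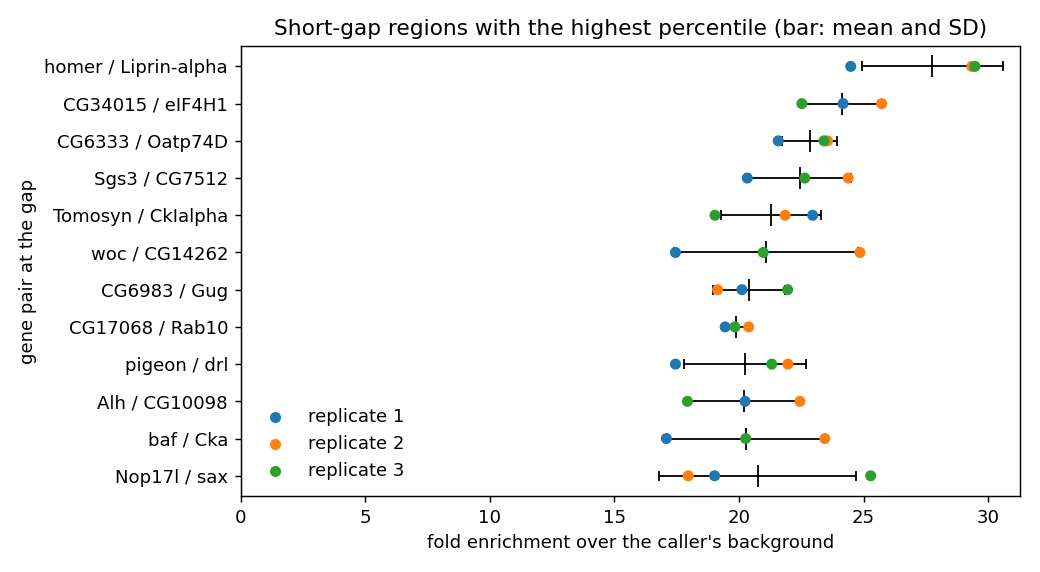
Fold enrichment, the authors' value per peak, of the 12 highest short-gap regions by mean percentile in each of the 3 libraries, with the flanking genes named and bars for mean and SD. Means run from 27.8 at homer and Liprin-alpha to 19.9 at CG17068 and Rab10, and neighbours in the order overlap.

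Copies of the histone and Hsp70 genes made up a small, low set among the short-gap regions. The histone genes stand in tandem repeats on 2L, and 38 regions (4.07%) lay at these repeats between 2L positions 21418599 and 21538398. The centre of 19 lay between the genes, of 17 between them but within another gene, and of 2 inside a gene of the pair. The median fold enrichment of the 38 was 5.67, with a range of 3.84 to 14.2, against 8.67 for the 890 regions beside neither kind of copy. By pair, 13 regions at His4 and His3 had a median of 6.47, and 7 at His2B and His2A had 8.79. At His2A and His3, 959 to 961 bp apart with His4 between them, 10 regions had 5.01. At His2B and His4, 824 to 1029 bp apart with His2A between them, 8 regions had 5.04. Another 5 regions lay beside Hsp70 copies on 3R, with a median of 4.30. Reads from near-identical copies cannot be placed with certainty, and how such reads were treated is not given in the sources used here. The values of these 43 regions are therefore uncertain.

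Most short-gap regions had 2 genes within 1000 bp. There were 814 such regions (87.2%), 101 with 3 genes and 18 with 4. Of the 18, 13 were in the histone repeats. The other 5 were at eIF4EHP, CG10694, CG18428 and CG13605 with 12.9 ± 0.859, at Actn, usp, CG4313 and CG4325 with 8.65 ± 0.772, at COX6B, CG18809, CG33932 and Rpp20 with 8.33 ± 3.27, at aph-1, Taf10b, Taf10 and colt with 5.29 ± 0.244, and at senju, CG14036, His3.3A and Nepl3 with 5.10 ± 0.965. eIF4EHP is a cap-binding repressor of translation, usp is the nuclear receptor that pairs with the ecdysone receptor, and Actn is an actin crosslinker.

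Some gaps had several regions. Each region was counted at 1 gene pair only. Outside the histone and Hsp70 copies, 102 gaps had 2 short-gap regions in this count, and 4 had 3. With a region counted at every gap that has both edges within 1000 bp of it, 107 gaps had more than 1. In 73 of the 102 one region lay between the genes and one inside, and their spacing over all 102 was a median of 479 bp, with quartiles at 373 and 627 bp. Merging of overlapping peaks keeps close pairs from being counted. The inside region was the higher one in 40 of the 73 pairs (54.8%), and by single libraries in 58.9% ± 2.37. The gaps with 3 regions included those at S and ast, at Sema1b and HPS4, and at CG31121 and CG11069. S (Star) and ast (asteroid) lie at a gap of 132 bp, with means of 9.59 ± 0.867, 9.86 ± 2.15 and 7.50 ± 2.42 for its regions. Star carries EGFR ligands through the secretory pathway.

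Few short-gap regions were near long non-coding RNA (lncRNA) genes. Such a gene lay within 1000 bp of, or around, 37 of them (3.97%), against 173 of the 1447 other boundary regions and 383 of the far regions (11.4%). Non-coding genes of any kind were near 141 short-gap regions (15.1%), 260 other boundary regions (18.0%) and 516 far regions (15.4%). Antisense RNA genes were near 4.61% and 3.87% of short-gap and other boundary regions, tRNA genes near 16 (1.71%) and 18 (1.24%), and snoRNA genes near 13 (1.39%) and 5 (0.346%). These shares count regions and were not tested.

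Lists of genes for growth, patterning and housekeeping were read against all protein-coding genes. Of 13922 such genes, 1677 (12%) had a boundary within 1000 bp of the centre of one, and of the 10507 genes at a gap of at most 2000 bp, 1623 (15.4%) did. The Hippo pathway restrains growth by holding back the coactivator Yorkie. Of its genes, 12 of 36 lay beside a short-gap region, and they are 12 of the 29 at a short gap (41.4%). By single libraries the share of those 29 genes with such a summit was 57.5% ± 1.99, against 21.4% ± 1.21 for all genes at short gaps. Of the Yorkie target list, 8 of 22 genes had one, and 8 of the 15 at a short gap (53.3%). Gene length was not matched in these shares, the lists overlap each other, and a region between a listed gene and its neighbour belongs to both.

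Hippo pathway regions spanned the range of enrichment, with a median percentile of 67.4 over 16 regions against 64.9 over all 933. hpo, the kinase that names the pathway, shared a gap of 895 bp with CG15120. The region at 2R:19496832-19496971 lay 49.3 bp from hpo with 13.0, 12.9 and 12.8, 12.9 ± 0.101. The region beside yki, the coactivator, lay inside the neighbouring Gpat4 at 2R:24068944-24069098, 558 bp from yki. It had 6.98, 10.4 and 9.71, 9.02 ± 1.79. The library values of the region near hpo lay above all 3 of the region in Gpat4.

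The 4 highest regions of this list lay beside Cka, Pez, wap and kibra, but those beside Pez and wap were inside the neighbouring gene. Cka, a scaffold of the STRIPAK phosphatase complex that acts on Hippo, had 17.1, 23.4 and 20.3, 20.3 ± 3.18, at its gap of 155 bp with baf. Beside Pez, a phosphatase that binds Kibra, a region inside the neighbouring Cpr had 14.2, 18.8 and 18.9, 17.3 ± 2.70. Between Pez and Cpr the values were 7.41, 6.11 and 10.5, 8.02 ± 2.28. The region beside wap lay inside the neighbouring Usp2, 881 bp from wap, with 15.5, 17.1 and 14.8, 15.8 ± 1.17. kibra, an upstream activator, had a region near each end. The one at the gap with CG7530, inside kibra, had 14.4, 18.6 and 14.0. The one at the gap with Meltrin lay inside Meltrin, 406 bp from kibra, with 7.48, 9.84 and 7.67. sd, the DNA-binding partner of Yorkie, had 6.48, 6.21 and 7.67, 6.79 ± 0.774, in its gap with PGRP-LE.

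Among Yorkie targets, InR, the insulin receptor, and E2f1, a cell cycle transcription factor, shared a gap of 982 bp, with 10.7, 10.8 and 7.39, 9.61 ± 1.92, at 3R:21619221-21619502, 106 bp from InR. At its other end, in the gap with Archease, E2f1 had 3.91, 3.87 and 4.08, 3.96 ± 0.112, the lowest region of this list. Diap1, an inhibitor of apoptosis, and Mbs, the myosin phosphatase subunit, shared a gap of 924 bp with 9.73, 8.89 and 12.3 near Diap1 and 7.64, 8.29 and 6.16 near Mbs. The Diap1 side was the higher in 3 of 3 libraries. CycB had 8.48, 13.5 and 10.2 at its gap with stl, crb 8.83 ± 1.77 at its gap with CG5715, and fj the low values 5.53, 4.17 and 4.85.

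**Figure D5:**
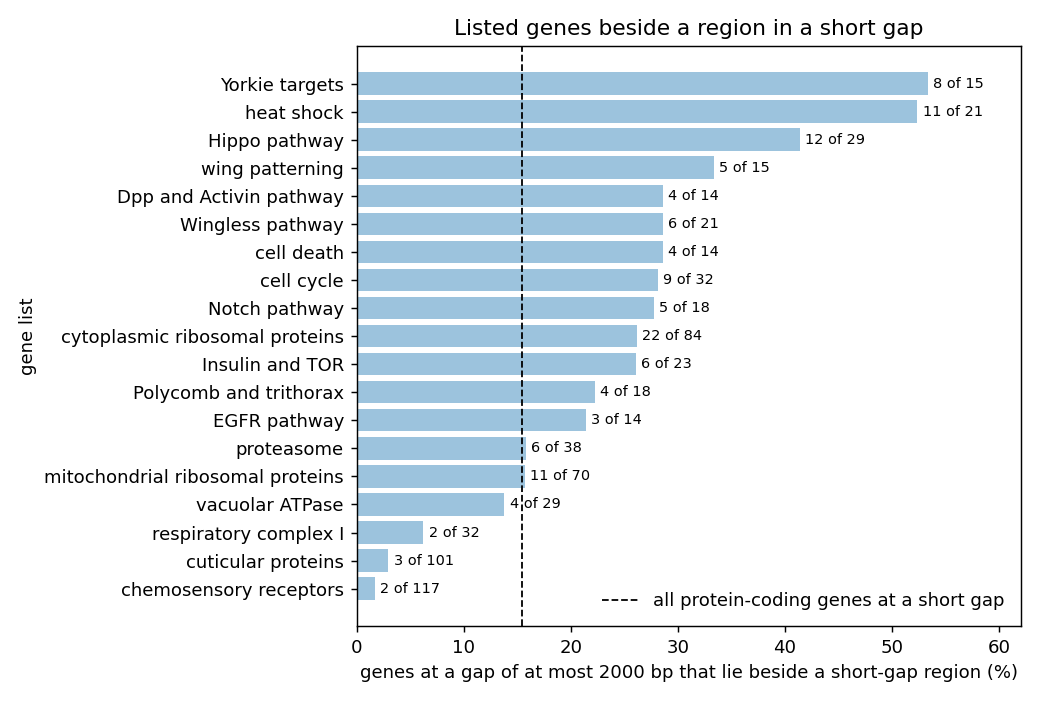
Share in percent of the genes at a gap of at most 2000 bp that lie beside a short-gap region, by gene list, with the number of genes. The line at 15.4% is the share over all 10507 such genes; heat shock genes at 52.4% include the Hsp70 copies, and chemosensory receptors are at 1.71%.

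Most wing patterning genes with a region near a boundary had none in a short gap. Of 47 genes of this list, 39 had a consensus region near a boundary, and 5 of these had a short-gap region (12.8%), whereas 61.1% of all 2743 genes with a region near a boundary did. Only 15 of the 47 lie at a gap of at most 2000 bp, and the 5 are 33.3% of them. The highest were eyg, at a gap of 1050 bp with CG32102, with 14.2, 11.0 and 16.5, and pnr, at 1701 bp with Jhbp4, with 12.7, 13.1 and 11.4. eyg and pnr encode transcription factors of the notum.

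Signalling lists were small. Of the genes at short gaps, 6 of 21 Wingless (28.6%), 4 of 14 Dpp and Activin (28.6%), 5 of 18 Notch (27.8%), 6 of 23 insulin and TOR (26.1%) and 3 of 14 EGFR pathway genes (21.4%) lay beside a short-gap region, against 15.4% of all. By single libraries these shares were, in the same order, 28.6% ± 0, 35.7% ± 0, 42.6% ± 12.8, 37.7% ± 10.9 and 38.1% ± 4.12. The share of all genes at short gaps was 21.4% ± 1.21. The Dpp and Activin regions ranked highest, with a median percentile of 88.1 over 5 regions. sax, a type I receptor for BMP ligands, had 19.0, 18.0 and 25.3 inside a gene and 8.60, 7.40 and 10.01 in its gap of 98 bp with Nop17l. Smox, the Smad of Activin signalling, had 13.1, 17.7 and 16.7, and tok and tld, neighbouring genes for related proteases that release BMP ligands, shared a region with 11.5, 11.7 and 15.7.

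In the other pathways, arr, the Wingless coreceptor, had 14.0, 12.4 and 12.3 in its gap with cbc, and Axn, the scaffold of the destruction complex, shared a gap of 193 bp with the ribosomal gene RpS28a with 11.8, 10.8 and 14.1. N, the Notch receptor, had 9.80, 6.16 and 8.56 in its gap with kirre and 5.86, 10.3 and 7.71 inside a gene of the pair. csw, the Shp2 phosphatase of receptor tyrosine kinase signalling, had 15.4, 12.8 and 15.5 inside a gene and 10.4, 12.6 and 10.6 in its gap with Unc-76. Lnk, an adaptor of the insulin receptor, had 12.6, 16.8 and 13.3 in its gap with SppL. Among cell cycle genes, 9 of 32 at short gaps (28.1%) had a region. Beside stg, the Cdc25 phosphatase, a region inside the neighbouring CG45544 had 8.55, 10.9 and 9.55. The one in the gap between them had 8.26, 9.09 and 9.09. Among cell death genes, 4 of 14 had a region (28.6%). At the gap of grnd, the receptor for the TNF Eiger, with CG10283 the values were 16.9, 17.2 and 17.9 at the CG10283 side. At the grnd side they were 8.60, 8.65 and 8.17. Of the Polycomb and trithorax genes, 4 of 18 at short gaps (22.2%) had a region. The highest was beside mor, a Brahma complex subunit, at 11.7 ± 1.25, and lay inside the neighbouring Hel89B.

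Housekeeping lists differed from each other. Of the cytoplasmic ribosomal protein genes, 22 of the 84 at a short gap (26.2%) had a short-gap region, and 22 of the 26 with any region near a boundary (84.6%) did. RpL3 and CG6693 had 20.1, 18.4 and 18.1, 18.9 ± 1.10, in a gap of 254 bp at 3R:11221671-11221930, and Nelf-E and RpL14 had 11.0, 17.1 and 14.3 in a gap of 126 bp. Nelf-E is a subunit of the factor that holds RNA polymerase II near promoters. By consensus regions, mitochondrial ribosomal protein genes were near the background, with 11 of 70 (15.7%), as were proteasome genes with 6 of 38 (15.8%). So were vacuolar ATPase genes with 4 of 29 (13.8%), the highest at Vha55 and Snx3 with 13.5, 17.5 and 13.4. By single libraries the mitochondrial ribosomal share was 27.1% ± 1.43, above the 21.4% ± 1.21 of all genes in each library. The proteasome share was 17.5% ± 1.52 and the vacuolar ATPase share 18.4% ± 1.99.

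Shares below that of all genes were found for respiratory complex I, with 2 of 32 (6.25%), cuticular proteins, with 3 of 101 (2.97%), and chemosensory receptors, with 2 of 117 (1.71%). Neither bun nor Madm, which encodes a protein that binds BunA, had a short-gap region. Only 1 of these 2 genes lies at a gap of at most 2000 bp, and 1 of the 2 had a consensus region near a boundary. Heat shock genes had 11 of 21 (52.4%) but at low enrichment, with a median percentile of 11.9 over 10 regions, 5 of which are at the Hsp70 copies. The highest was at Hsc70-5, a mitochondrial chaperone, and CG8531 with 6.98, 8.80 and 11.3. A region at Hsp67Bc, CG4456 and Hsp22, genes of this list side by side, had 4.76, 4.69 and 5.24. One between the cuticle genes Ccp84Ag and Ccp84Af had 6.48, 5.18 and 5.11. The discs were warmed to 37 °C in all the libraries, and what this contributes was not tested.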

How the data were processed

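CUT&Tag with an antibody against HA was analysed in 3 libraries of 1 group. Peaks were called per library, since the deposited peak names carry single library names. The submitters' processing notes name MACS2, Bowtie and Bowtie2, Trim Galore, FastQC, deepTools, HOMER, ChIPseeker and R 4.2.1, with dm6 as the build. Aligner settings and the handling of duplicates and multiply mapping reads: not given in the sources used here. The authors' lists give, per peak, a fold enrichment as a linear ratio, −log10 p-values and −log10 q-values, and a score. Depth is unknown, so no counting intervals are given.

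Genes came from the RefSeq gene table (Release 6 plus ISO1 MT, the dm6 assembly), without strand, exons or sequence. A planned comparison of gene orientation and the planned promoter sequences were therefore not made. Python 3.11.15, numpy 2.4.6 and pandas 2.3.3 were used. Folds were ranked within a library. The region rule, the 20 gene lists (7 by symbol pattern) and the tests were chosen with earlier results of these data known. Of 329 listed symbols, 5 matched no gene. Genes were named by rank, by gap length, by number of neighbours, by closeness to the limit and, per list, by up to 4 of the highest regions; other listed genes with values were chosen after their values were seen. In simulated data the rule recovered 60 of 60 planted regions. All of these lay mid-gap between neighbouring genes, so this only checks the code on simple cases. Centres near the 1000 bp limit, genes within a gap and repeated copies were not simulated.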

Additional observations from a re-analysis of the deposited data

How the results depend on the processing

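The 933 regions became 473 with a distance of 500 bp and 1559 with 2000 bp, and their share of the consensus regions 8.26% and 27.2%. With all annotated genes the share was 20.3%. The share of short gaps with a region, 10.8%, was 14.4% with peaks of at least 2 libraries, 9.82% with a −log10 q-value of at least 5, 6.61% at 500 bp and 16.0% at 2000 bp. It ran from 11.7% to 12.5% when each library was left out in turn. The mean differences in fold percentile, width and recurrence from the other boundary regions kept their sign in all 11 alternatives, none of which could pass 0.05. The sign in single libraries was not compared there, and SDs below are over the libraries used. The fold percentile difference ran from -4.83 ± 0.697 at 500 bp to -0.51 ± 0.719 at 2000 bp, where the SD exceeded the mean difference. With peaks of at least 2 libraries it was -2.76 ± 2.66. It was -1.34 without the histone and Hsp70 copies, an alternative chosen after seeing the data, and -1.89 without replicate 2. The recurrence difference was -3.32 ± 2.87 with peaks of at least 2 libraries, -3.78 ± 3.51 without replicate 3 and -10.0 ± 2.44 at 500 bp. The causes were not tested. The orientation comparison was not run, since the gene table gives no strand. No paired analysis was possible because there is 1 group; libraries were paired only with themselves between region classes. Without read counts, what depth limits is unknown.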

Other observations

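Genes with several short-gap regions were a minority: 1378 genes had 1, 278 had 2, 20 had 3, and l(2)k09913 had 4. The regions of a gap whose listed gene is not the nearer one are also counted for it, so a count of regions beside a gene does not say which gene of the pair they concern.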
